A study of Drosophila melanogaster with 3 samples.

Results

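Prospero binding was described at 655 intergenic summits that lie close to genes without lying in a promoter. They make up 10.5% of the authors' optimal set, which holds 5560 other summits. A summit is the position that the peak caller marked inside a peak. A summit was taken when it lay outside every protein-coding and non-coding RNA gene, more than 500 bp from every annotated transcript start, and at most 5 kb from the nearest start of a protein-coding gene (Ensembl annotation, dm6 build). Within the optimal set position alone chose them, so their strength, their sequence and their recurrence between replicates were not used at that step. The optimal set itself was derived from these replicates and thresholded on the irreproducible discovery rate. Chromatin immunoprecipitation and sequencing (ChIP-seq) had been run on whole Drosophila melanogaster embryos, aged 2 to 18 h and of both sexes, from the line pros-GFP. Those flies carry a transgene for Prospero with green fluorescent protein at its C terminus, precipitated with anti-GFP per the sample descriptions, while the antibody label reads pros. The 3 samples, labelled biological replicates, form a single group, and no other genotype, stage or control library was used here. Whole embryos mix all tissues, and peak lists hold no expression values with which the cell types could be checked.

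Prospero is a homeodomain transcription factor that neuroblasts (the stem cells of the nervous system) make and pass to the smaller daughter at division. In that daughter it enters the nucleus, where it is known to turn down genes of the neuroblast and of the cell cycle and to turn on genes of neuronal differentiation. In the compact fly genome many enhancers lie in the DNA between genes, within a few kb of the gene they serve, and intergenic summits near starts are where such elements would be met. The annotation gives the nearest start and not the gene that a site regulates, so a nearest gene is a position here and not a target.

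The sequences below were chosen because they hold the Prospero homeodomain core AAGACG within 100 bp of a strong summit, and they are the 6 strongest of that kind outside a single excluded arm. Each is a stretch of 61 bp from the RefSeq copy of the Release 6 assembly (dm6), read 5′ to 3′ on the strand that reads AAGACG, with the core in capitals.
Rh5: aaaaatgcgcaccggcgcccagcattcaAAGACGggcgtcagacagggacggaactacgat
wor: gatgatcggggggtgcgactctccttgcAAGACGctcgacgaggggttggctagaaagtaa
inc: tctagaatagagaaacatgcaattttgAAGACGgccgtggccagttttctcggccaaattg
Idh: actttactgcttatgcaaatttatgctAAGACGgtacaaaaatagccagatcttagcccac
ed: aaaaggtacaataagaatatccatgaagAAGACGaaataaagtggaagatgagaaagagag
CG43354: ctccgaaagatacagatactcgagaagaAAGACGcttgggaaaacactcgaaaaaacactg
The names are those of the nearest protein-coding gene. The Rh5 stretch is chr2L:12007498-12007558 (minus strand) and its core runs from 12007525 to 12007530, 18 bp from a summit of rank 49 by signal. The wor stretch is chr2L:15427064-15427124 (minus strand), with the core 71 bp from a summit of rank 106. The inc stretch is chrX:1517927-1517987 (plus strand), with the core 47 bp from a summit of rank 173. The Idh stretch is chr3L:8363464-8363524 (plus strand), with the core 33 bp from a summit of rank 183. The ed stretch is chr2L:4029024-4029084 (minus strand) and that at CG43354 is chr2L:18305339-18305399 (minus strand), beside summits of rank 253 and 435. A match is a description of the sequence, not a proven site.

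A single summit held 4 copies of the core, the most of any of the 655, and its whole window, 100 bp to either side of the summit, is given for that reason. It lies 1.32 kb upstream of the start of CG43401 at chr2L:1427057-1427257, shown on the plus strand from the same assembly, with AAGACG and its reverse complement CGTCTT in capitals.
CG43401: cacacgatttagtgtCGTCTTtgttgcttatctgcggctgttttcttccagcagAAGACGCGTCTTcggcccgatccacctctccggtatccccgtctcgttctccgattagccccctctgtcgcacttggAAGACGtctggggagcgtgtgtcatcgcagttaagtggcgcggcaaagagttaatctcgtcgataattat
The copies start at positions 16, 55, 61 and 132 of the window, 2 on each strand. The copies at 55 and 61 abut, one on each strand. This summit ranked 478 in the optimal set and 392, 683 and 526 in the lists of replicates 1, 2 and 3. Another 6 summits held 2 copies each, 66 held 1 and the remaining 582 held none.

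A second group of sequences shows the 6-mer with the smallest p in a search over all 6-mers, CACCCC, whose values follow further down. The 4 strongest summits outside the excluded arm that hold it are shown as 46 bp on the strand that reads CACCCC, with those letters in capitals.
sll: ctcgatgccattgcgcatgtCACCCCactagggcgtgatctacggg
wor: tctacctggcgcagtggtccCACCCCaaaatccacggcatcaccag
Df31: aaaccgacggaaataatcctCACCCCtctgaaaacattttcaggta
ed: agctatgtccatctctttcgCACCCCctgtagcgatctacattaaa
These are chr3R:17604783-17604828 (minus strand) beside the summit of rank 53, chr2L:15426964-15427009 (plus strand) beside that of rank 106, chr2L:21630512-21630557 (plus strand) beside that of rank 136, and chr2L:4030385-4030430 (minus strand) beside that of rank 241. All 4 lie upstream of the named gene, between 0.576 and 1.44 kb from its start. Of the 4, the summit at wor also had the Prospero core in its window.

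The strongest of the 655 were strong in the whole genome and recurred in all 3 replicates. Several had a gene of neuroblasts or of the Notch response as their nearest protein-coding gene. Rank by signal runs from 1 for the strongest peak of a list, and the signal itself is the authors' value on a scale that the sources do not state, so it is used only for order within a list. The highest rank was 13, next to CG42807 on 2R, and the weakest of the 655 was the last peak of the optimal set. The median was 3104, against 3108 over the whole optimal set. For comparison with a replicate, as many of its strongest peaks were taken as the optimal set holds. Each of the 20 strongest summits had a summit within 150 bp among those peaks in all 3 replicates.

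Among genes of neuroblasts, the strongest of these summits lay upstream of wor (worniu), which encodes a Snail-family zinc finger protein of neuroblasts. It stood 1.44 kb from the start and ranked 107, 128 and 119 in replicates 1, 2 and 3, and 106 in the optimal set. A summit 1.05 kb upstream of dpn (deadpan), which encodes a basic helix-loop-helix (bHLH) repressor of neuroblasts, ranked 166, 118 and 128 (optimal set 118). The 3 replicates thus placed both within a narrow band of ranks. A summit 2.93 kb upstream of insc (inscuteable), whose product orients the spindle of dividing neuroblasts, ranked 130, 193 and 156 (optimal set 155). A summit between slp1 and slp2, which encode related forkhead factors used in segmentation and in ageing neuroblasts, lay 2.17 kb past the slp1 start and ranked between 197 and 262 in the 3 replicates, 220.0 ± 36.4 on average (SD, n = 3), and 196 in the optimal set.

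The Enhancer of split complex, a cluster of Notch target genes on 3R, held a summit at 26002753 that ranked 150, 143 and 146 in replicates 1, 2 and 3 (optimal set 133). It lies 2.90 kb beyond the start of E(spl)mgamma-HLH, a bHLH repressor, in an interval of 1.81 kb between a pair of non-coding RNA genes. Its mean rank was 146 ± 3.51 (SD, n = 3). The summit 2.56 kb upstream of Idh (isocitrate dehydrogenase) had the narrowest spread of the 20 strongest, with ranks of 204, 205 and 205. The widest was that at CG13323, 4.53 kb from its start and in an interval of 36.8 kb that ends at the Polycomb-related gene Su(z)2, with ranks of 225, 121 and 418.

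The remaining strong summits lay beside genes of many kinds. The summit of rank 13, 2.11 kb beyond the start of CG42807, ranked 12, 14 and 13 in replicates 1, 2 and 3. It belongs to a merged peak region on 2R that holds 13 summits of the optimal set, and no other GFP precipitation or control was used here, so signal of that region in any such library was not tested. A summit between the Polycomb-group genes ph-d and ph-p, 0.520 kb upstream of ph-d and so close to the 500 bp margin, ranked 14, 18 and 14. A pair of summits upstream of sll (slalom, a transporter of the sulfate donor into the Golgi), 2.05 and 1.24 kb from its start, ranked 37, 48 and 21, and 52, 92 and 50. Rh5, which encodes a blue-sensitive opsin of photoreceptors, had a summit on each side of the gene. The upstream one, 0.643 kb from the start, ranked 64, 102 and 40, and the one 2.20 kb beyond the start ranked 85, 53 and 97. The summit 0.653 kb upstream of ssp3 ranked 36, 30 and 52. Others among the 20 lay near CG43333, CG44439, Df31 (a chromatin decondensation factor), CG44362, Shrm (an actin-binding protein of the Shroom family) and inc (insomniac, an adaptor of a ubiquitin ligase), with ranks in the optimal set between 78 and 173.

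**Figure D1:**
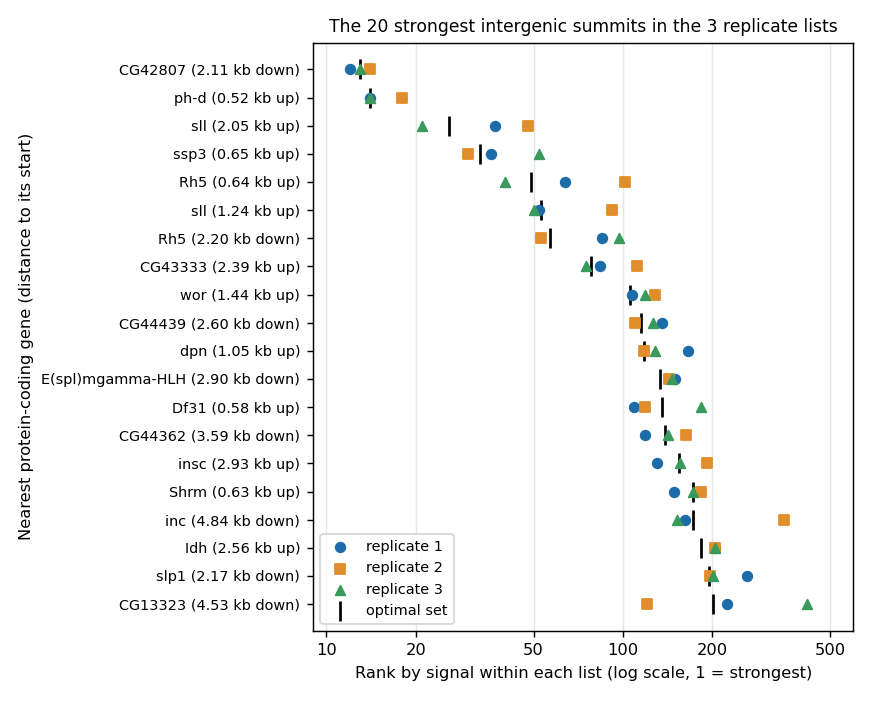
Rank by signal (x axis, log scale, 1 is the strongest peak) of the 20 strongest intergenic summits near starts in each of the 3 replicate lists (coloured points) and in the optimal set (black tick), with the nearest protein-coding gene and the distance to its start on the y axis. The points of a row sit close together for CG42807 (12, 14 and 13) and Idh (204, 205 and 205) and spread furthest for CG13323 (225, 121 and 418).

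Recurrence over all 655 was close to that of the other classes. Of them, 416 (63.5%, exact binomial 95% interval 59.7% to 67.2%) had a matching summit within 150 bp among those peaks of all 3 replicates, 165 in 2, 73 in 1 and 1 in none. By replicate the share was 86.3%, 82.0% and 83.8%, a mean of 84.0% ± 2.14 (SD, n = 3). The share matched in all 3 was 62.7% for the 584 intergenic summits more than 5 kb from a protein-coding start, 64.3% for the 1547 intronic summits at the same 0.5 to 5 kb, and 62.2% for the 2116 promoter summits within 500 bp of any start. None of these 3 differences passed Fisher's exact test (two-sided, Benjamini-Hochberg adjusted p = 0.867 each, over 9 comparisons of 3 measures with 3 classes). The optimal set was derived from the same replicates, so the match is a description of recurrence and not an independent trial.

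In strength the 655 differed from the far intergenic summits only before adjustment. Among the strongest 20% of the optimal set (rank 1243 or better) were 132 of the 655 (20.2%, interval 17.1% to 23.4%), against 90 of the 584 intergenic summits beyond 5 kb (15.4%), 322 of the 1547 intronic ones (20.8%) and 420 of the 2116 at promoters (19.8%). The 4.74 points that separate the near from the far intergenic summits gave p = 0.0315 in Fisher's exact test and an adjusted p of 0.283, so the difference did not pass. Median ranks were 3104 near starts, against 3472.5 beyond 5 kb, 3087 in introns and 2987.5 at promoters. Neighbouring peaks are not independent, and these p-values describe the lists and not a spread between embryos.

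Matching followed strength. Of the 219 strongest (ranks 13 to 1999), 95.9% were matched in all 3 replicates, of the next 218 78.4% and of the 218 weakest 16.1%. The optimal set is ordered by the signal of these same samples pooled, so the 2 measures are not independent.

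By position, upstream summits were densest at 500 to 1000 bp, the bin nearest to the start that the rule admits, and downstream ones were thinnest there. The bases that satisfy the distance and annotation rule came to 12.8 Mb, 9.56% of the chromosome arms, and held 51.2 summits per Mb, against 46.4 per Mb for all summits over the arms as a whole. Of the 655, 484 lay upstream of the nearest protein-coding start (73.9%, interval 70.4% to 77.2%), where 69.4% of the qualifying bases lay, and 171 downstream (26.1%). That is 54.5 per Mb upstream and 43.6 per Mb downstream. Downstream of a start and still intergenic means past the 3′ end of the gene. The nearest start can be one inside a longer gene, as at inc. The median distance was 2993 bp downstream and 1805 bp upstream. From 500 to 1000 bp upstream there were 119 summits (66.0 per Mb), whereas the same distance downstream had 5 (20.8 per Mb). The fullest bin of 500 bp on the downstream side lay at 2000 to 2500 bp, with 34 summits (66.4 per Mb). Taking both sides together, the density was 60.7 per Mb at 0.5 to 1 kb, 53.2 at 1 to 2 kb, 52.9 at 2 to 3 kb, 41.5 at 3 to 4 kb and 47.6 at 4 to 5 kb. No test was made of these densities.

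**Figure D2:**
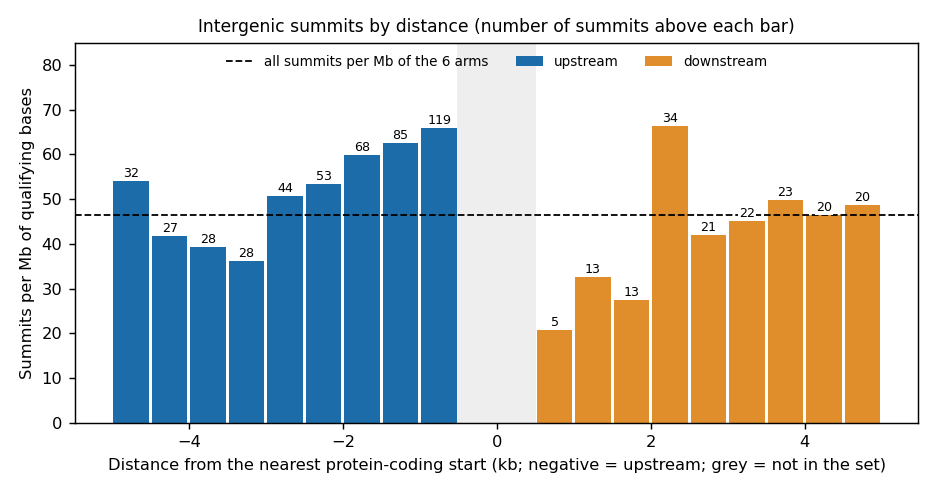
Summits per Mb of qualifying bases (y axis) in bins of 500 bp by distance from the nearest protein-coding start (x axis, kb, upstream negative), with the number of summits above each bar and the density of all summits over the arms as a dashed line (46.4 per Mb). Upstream the highest bar is the first, at 500 to 1000 bp (66.0 per Mb). Downstream the first bar is the lowest (20.8 per Mb) and a single tall one stands at 2000 to 2500 bp (66.4 per Mb).

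The choice of limits can be read from the summits nearest to them. Just inside the 500 bp margin were summits 501 bp from a start at Idgf5 (rank 4798) and 502 bp at CG10479 (rank 4586), and just outside it were summits at 498 bp near CG17544 (rank 2892) and 499 bp near CG13894 (rank 249). Just inside 5 kb were summits 4991 bp from the start of CG15468 (rank 3864) and 4966 bp from that of Fie (rank 2188), and just beyond it summits at 5011 bp near SmD1 (rank 5555) and 5016 bp near CG10479 (rank 2645).

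The number per Mb of qualifying bases also differed between arms and between kinds of interval. It was 61 on 3L (162 summits), 55.9 on 2R (131), 54.5 on 3R (173), 48.5 on 2L (125) and 27.6 on X (54). The small arm 4 had 10 summits at 106 per Mb. Intervals between genes that point away from each other, whose ends are both 5′ ends, had 60.3 summits per Mb (210 summits), intervals between genes in the same direction 50 per Mb (341), and intervals between genes that point at each other 41.8 per Mb (103). The last summit lay beyond the final gene of an arm. These are counts from a single group, given without a test.

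The 655 summits lay in 400 of the 5996 intergenic intervals with qualifying bases (6.67%). Of these 400, 253 held 1, 86 held 2 and 61 held 3 or more. As 655 summits cannot fill 5996 intervals, a small share was fixed by the counts, and no expected number was worked out. Intervals with a summit were longer, at a median of 5.42 kb, against 1.63 kb for all 5996. The fullest was the 10.1 kb between CG43915 and scrt on 3L, from 3973785 to 3983895, with 8 of the 655 and 10 summits of the optimal set in all. Here scrt (scratch) encodes a Snail-family factor of neurons. Of its 8 summits, 7 were matched in all 3 replicates, and the strongest, at 3976704, ranked 482, 632 and 439 in replicates 1, 2 and 3. The 5.30 kb between mat and nerfin-1 on 3L held 5. The strongest next to nerfin-1, which encodes a zinc finger protein that keeps neurons differentiated, ranked 364, 411 and 531 at 1.18 kb upstream. As merged peak regions, the 655 summits fell into 528 regions, and 262 of them (40.0%) shared a region with another summit of the optimal set.

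In all, 414 protein-coding genes were nearest to at least 1 of the 655 summits, 2.97% of 13945 genes and 6.58% of the 6294 genes that were nearest to any qualifying base. A single summit fell to 263 of them, 2 to 94, 3 to 34 and at least 4 to 23. Rh5, CG43915 and CG43131 had 6 each, and NAT1 (a translation factor related to eIF4G), CG7560, CG15283 and tbrd-2 (a testis bromodomain protein) had 5 each. CG33798, rpr (reaper, an activator of cell death) and tap (a bHLH factor of the neurogenin family) had 4 each. The strongest of those at rpr lay 1.67 kb upstream and ranked 257, 183 and 311 in replicates 1, 2 and 3. The strongest at tap lay 2.41 kb beyond the start and ranked 321, 601 and 417. Of the 4 at tap, all lay past the gene, and of the 5 at NAT1 all lay upstream.

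Genes nearest to one of these summits often had another in their promoter or intron. A promoter summit stood at 138 of the 414 (33.3%), against 596 of the 5880 other genes nearest to qualifying bases (10.1%). An intronic summit stood in 20.5% of the 414, against 6.60% of the 5880, and either kind in 39.6%, against 13.4%. The 414 had more qualifying bases each, with a median of 3.64 kb, against 1.10 kb for all such genes. The part of that length in these shares was not tested. Of the summits near starts, 262 (40%) shared a merged peak region with another summit of the optimal set. Such a region can cross the gene's start, as at nerfin-1, where it runs from 907125 to 909440 and the start is 909112. A promoter or intronic summit could then belong to the same region. The part of shared regions in these shares was not tested either.

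Described by gene list, the nearest genes were most frequent among Notch pathway, segmentation and neuroblast genes. The lists were written with earlier results of these data known, so their shares are a description and not a test. In the list of the Notch pathway and the Enhancer of split complex, 13 of 29 genes (44.8%) were nearest to at least 1 of the 655, beside 2.97% of all protein-coding genes. The strongest were at E(spl)mgamma-HLH (given above), then E(spl)malpha-BFM, a Bearded-family gene, with a summit 0.888 kb upstream at ranks 345, 415 and 799 in replicates 1, 2 and 3. A summit 1.90 kb upstream of E(spl)m7-HLH, another bHLH repressor of the complex, ranked 552, 479 and 600. The fourth, 4.55 kb beyond the start of Su(H), the DNA-binding partner of Notch, ranked 1443, 937 and 1512. Besides targets and the DNA-binding partner, the nearest genes included the ligand gene Ser (Serrate, rank 2077 in the optimal set) and mib1, whose product is a ubiquitin ligase that acts on the ligands (rank 2957). Genes of a complex share intervals, so these counts are not independent.

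Of 32 proneural and neuroblast transcription factor genes, 11 (34.4%) were nearest genes. After wor, dpn and slp1 the strongest was tap, and the others were nerfin-1, klu (a zinc finger factor of neuroblasts, rank 460), hb (hunchback, the first of the temporal factors, rank 709), slp2, tll, Dr and D. The summit 2.78 kb upstream of klu ranked 445, 508 and 522 and held the Prospero core, as did those at wor and hb. The Hox and segmentation list had 12 of 34 (35.3%), with slp1, hb, ftz and slp2 in the lead, and it shares these and other genes with the neural lists. The 3 summits nearest to the pair-rule gene ftz were led by one 2.37 kb upstream with ranks of 709, 2334 and 1281, a wide spread. The list of neuronal transcription factors had 8 of 30 (26.7%), led by zfh1 (a zinc finger homeodomain repressor) at 4.72 kb upstream with ranks of 648, 524 and 701, ftz, zfh2 and dimm (a bHLH factor of peptide-secreting neurons).

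For asymmetric division and the cell cycle 5 of 30 genes (16.7%) were nearest genes. They were insc, CycB (the mitotic cyclin B), trbl (tribbles, a brake on mitosis), dap (dacapo, a cyclin-dependent kinase inhibitor) and E2f2. The summit 0.728 kb upstream of dap ranked 660, 1116 and 697 in replicates 1, 2 and 3, and that 1.21 kb upstream of trbl ranked 376, 658 and 936. CycB had 2 summits in an interval of 1.34 kb, and the stronger one, 3.33 kb beyond the start, ranked 606, 553 and 163 in replicates 1, 2 and 3 (optimal set 300). The weaker one, 3.13 kb beyond the start, ranked 2816, 2802 and 2938 (optimal set 1771). Axon guidance and adhesion genes came to 5 of 39 (12.8%), led by Tl, robo2 (a receptor for Slit), comm (which sorts Robo receptors) and Toll-7, at ranks between 1659 and 2621. Of the 30 genes of neuronal function (synaptic and channel genes), 0 were nearest genes, which in a list of this size is close to the 2.97% of all protein-coding genes.

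Among genes of other tissues the shares were below those of the Notch, neuroblast and segmentation lists. Mesoderm and muscle had 4 of 27 (14.8%), the sensory organ and eye list 4 of 26 (15.4%), glia 1 of 13 (repo, the glial homeodomain factor, rank 1226) and trachea, epidermis and cuticle 1 of 18 (verm, a chitin deacetylase, rank 1307). Of the mesoderm list the leading genes were bap (rank 2069), rols, bin and how, and of the sensory list Rh5, tap, salm and ct. Cytoplasmic ribosomal proteins had 1 of 57 (RpL13, rank 2993), and the lists of chemoreceptors and of blood, fat body, gut and germline had 0 of 25 each. In lists of these sizes such counts are close to the 2.97% of all protein-coding genes and show no depletion. The lists differ in how many genes were nearest to any qualifying base, such as 20 of 29 Notch genes and 24 of 57 ribosomal protein genes. They also differ in the length of qualifying DNA per such gene. Its median was 4.50 kb for the proneural, axon guidance and segmentation lists, 1.86 kb for the Notch list and 0.626 kb for ribosomal proteins. The shares of all listed genes are therefore not on an equal footing. Among genes nearest to any qualifying base, the share was 65.0% for the Notch list, 44.0% for the proneural list and 38.7% for the segmentation list. It was 17.2% for the axon guidance list and 4.17% for ribosomal proteins, beside 6.58% of all such genes. The part of length in these counts was not tested.

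**Figure D3:**
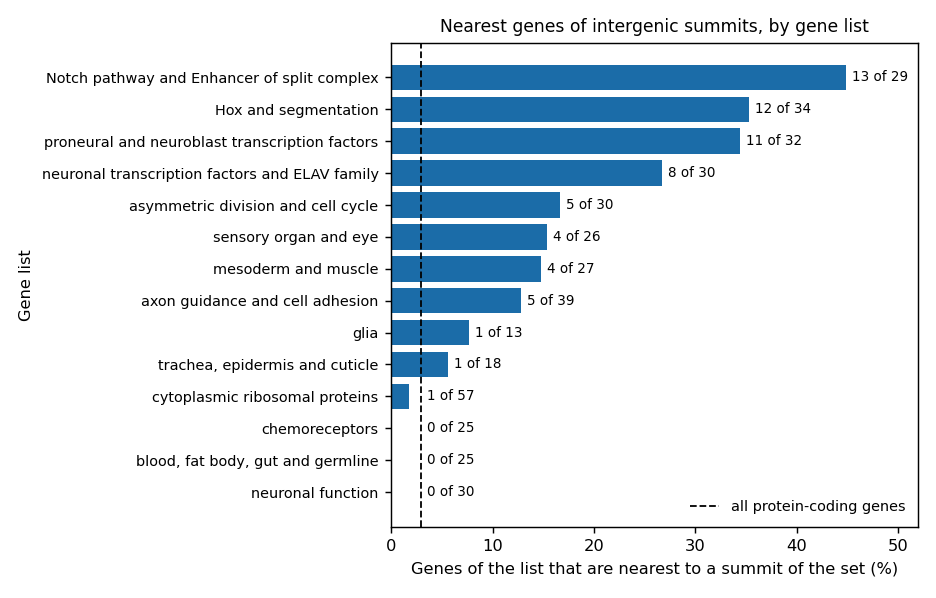
Share of the genes of each list (rows, with counts beside the bars) that were the nearest protein-coding gene of at least 1 of the 655 summits (x axis, %), with the share over all protein-coding genes as a dashed line (2.97%). The Notch list stands at 44.8%, and the 3 lists at 0 hold 25 to 30 genes each, so few that 0 is close to the dashed line.

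In sequence, the Prospero core had the highest ratio to the flanks among the 11 named motifs. AAGACG (or CGTCTT on the other strand) occurred within 100 bp of 73 of the 655 summits (11.1%, interval 8.84% to 13.8%), against 3.51% and 4.27% of equally wide flanks whose centres lie 500 bp to the left and to the right. That is 2.86 times the mean of both flanks (exact McNemar test against each flank, larger p = 5.46e-06, adjusted p = 2.0e-05 over 11 motifs). Of 63731 windows tiled over the qualifying bases 5.04% held it. The ratio was 3.62 with 1 summit per merged region, but 1.76 with flanks at 1000 bp and 1.60 with the shorter core AGACG. Cores were densest within 25 bp of the summit, at 0.824 per kb, and fell to 0.336 per kb at 200 bp to the left and 0.244 per kb at 200 bp to the right. The core was present at 15.5% of the 219 strongest summits, 9.63% of the next 218 and 8.26% of the 218 weakest, with 4.57%, 4.13% and 2.98% in the flanks of each.

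The share with the core was not shown to differ from the 3 classes compared. It was 11.1% at the 655, against 10.3% at intergenic summits beyond 5 kb, 12.02% at intronic summits at 0.5 to 5 kb and 10.02% at promoter summits. The adjusted p was 0.867 in each comparison (Fisher's exact test, two-sided, over the same 9). With the core shortened to AGACG the difference from intronic summits was -6.09 points and passed Fisher's exact test (adjusted p = 0.028). Exonic summits, which were not among the classes compared, had the core at 42 of 260 (16.2%, interval 11.9% to 21.2%) and a ratio to their flanks of 2.80. The flanks of the 655 had the lowest share of the 4 classes in these comparisons, 3.89% on average, against 4.62%, 5.11% and 5.69%, so the ratio to the flanks was 2.86 here, against 2.22, 2.35 and 1.76. Summits in introns beyond 5 kb, likewise not compared, had the core at 12.2% and a ratio of 2.46. None of these ratios was tested against another.

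**Figure D4:**
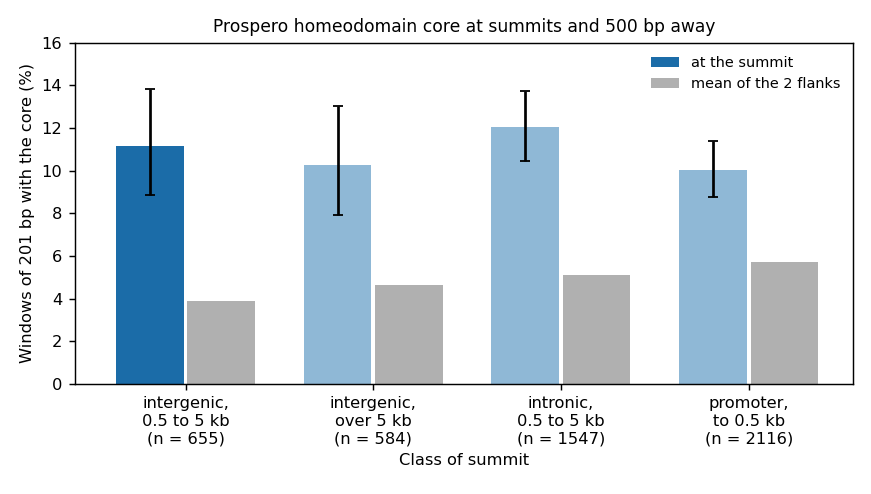
Share of windows (100 bp to either side of their centre) that hold the Prospero homeodomain core (y axis, %) at the summits (blue, with exact binomial 95% intervals) and in the flanks centred 500 bp away (grey, mean of both sides) for 4 classes of summit (x axis). Summit shares lie between 10.02% and 12.02% and their intervals overlap, and the flank share is lowest for the intergenic summits at 0.5 to 5 kb (3.89%).

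Of the other 10 motifs searched on both strands, 1 was more frequent at the summits than in both flanks and 1 less frequent. The GAGA factor repeat GAGAG was present at 35.7% of the 655, against 19.5% in the flanks (1.84 times, adjusted p = 2.8e-09, exact McNemar test), and in 19.5% of the tiled windows. Trithorax-like, the GAGA factor, keeps chromatin open at many fly promoters, and the repeat stood at 29.5% of far intergenic, 40.5% of intronic and 46.6% of promoter summits. The homeodomain core TAATTA was present at 7.94%, against 17.6% in the flanks (0.450 times, exact McNemar test, adjusted p = 2.0e-05) and 15.7% of the tiled windows. The Zelda site CAGGTA stood at 6.87%, against 3.89% (adjusted p = 0.147), and the proneural E-box CAGCTG at 9.16%, against 7.56% (adjusted p = 0.888), and neither passed the exact McNemar test. The Su(H) site GTGGGAA stood at 4.89%, against 4.50% in the flanks, and did not pass. The Snail-family E-box CAGGTG, the Twist E-box CATATG, the Grainy head site ACCGGTT, the DRE TATCGATA and the Sox site ACAATG did not pass either (ratios between 0.556 and 1.14). Where letters are not found in a window, that says nothing about the factor.

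The summits were richer in G and C than their surroundings, and the part of base composition in the motif counts was not tested. Median GC was 46.8% within 100 bp of the summit, 38.1% in the flanks and 40.8% in the tiled windows. Among all distinct 6-mers, 132 (6.35%) were more frequent at the 655 summits than in both flanks and 154 were less frequent (exact McNemar test, adjusted p under 0.05 over all 6-mers, and 275 higher at an unadjusted p under 0.05). The number higher was 22 with flanks at 1000 bp and 24 with windows that reach 50 bp from the summit. By letters, the median ratio was 0.481 for the 36 6-mers without G or C, 1.14 for those with 3 and 1.81 for the 36 made of G and C alone. AAGACG has 3 such letters. Its ratio of 2.86 lay above all 59 other 6-mers of the same bases, whose median was 1.24 and highest value 2.22, and it stood in place 57 among all 6-mers by p.

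CACCCC had the smallest p of all 6-mers. It occurred at 21.7% of the 655 summits, against 5.57% in the flanks (3.89 times, adjusted p = 3.8e-13, exact McNemar test) and 5.81% of the tiled windows. Its share was 26.0% at intergenic summits beyond 5 kb, 18.4% at intronic summits and 12.2% at promoter summits, differences that were not tested. Of the next 9 6-mers higher at the summits, 3 share 5 letters in a row with it, among them CCACCC at 20.6%, against 7.40% in the flanks. It stood at 25.1% of the 219 strongest summits, 22.0% of the next 218 and 17.9% of the 218 weakest. CACCCC and the Prospero core were seldom in the same window, which happened at 9 of the 655. CACCCC was present at 12.3% of summits with the core and at 22.9% of those without it, a description of counts with no test. At 449 summits (68.5%) neither was present. The other 9 of the 10 6-mers of smallest p, such as TAAATA (15.6% at summits, against 35.6% in the flanks) and ATTATA (8.40%, against 24.9%), were made of A and T alone and were less frequent at the summits.

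**Figure D5:**
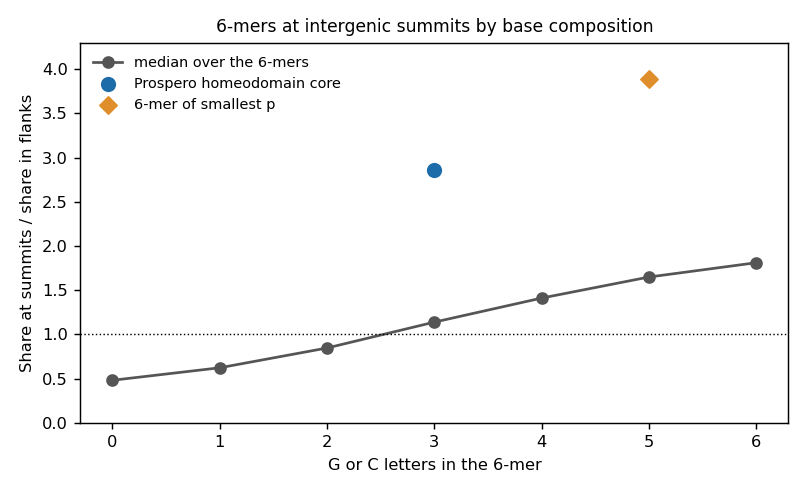
Share at the 655 summits divided by the share in their flanks (y axis) by the number of G or C letters in a 6-mer (x axis), as the median over all 6-mers of that composition (grey), for the Prospero homeodomain core (blue) and for the 6-mer of smallest p (orange). The median rises with G or C letters between 0.481 and 1.81, and both single 6-mers lie above it, at 2.86 and 3.89. The 6-mer of smallest p was picked from these same data, so its place above the median is not a separate result.

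Transposable elements were almost without such summits. A single one of the 655 (0.153%, rank 4020) lay in an annotated element, while 6.42% of the qualifying bases did. How reads from repeats were treated before peak calling is not given in the sources used here, so the part of read mapping in this difference was not tested.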

How the data were processed

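Per the labels and file descriptions, the deposited peak lists (narrowPeak, dm6) comprise 1 list of 30000 peaks for each of 3 replicates, 1 from pooled replicates and an optimal set of 6215 peaks thresholded on the irreproducible discovery rate. The sources used here do not name the aligner, the caller or that threshold. Each deposited peak has the authors' signal, used only for ranks, and a deposited −log10 q-value, 4.3 at every optimal peak and not used. Read counts are not part of the lists, so depth is unknown, and binomial intervals cover counting error only.

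Summits were classed with the Ensembl annotation, release 115, counting every kind of non-coding RNA gene, but neither pseudogenes nor transposable elements. Sequence came from the RefSeq copy of Release 6. Replicate summits matched within 150 bp, and 1 replicate peak could match several summits. Sequence windows were 201 bp wide, and 2080 distinct 6-mers were compared. Exact McNemar, Fisher's exact and exact binomial tests used scipy 1.17.1 in Python 3.11.15, with Benjamini-Hochberg adjustment and a threshold of 0.05. The exact McNemar search over 6-mers was tested on simulated windows with planted copies of AAGACG. Simulated summits and flanks had the same base composition, unlike those of the data. Fisher's exact test was tried on fixed counts, and the binomial intervals were not tried. The labels do not say that embryos of the replicates were collected separately. The 20 strongest summits, the 10 genes with most summits, 4 genes per list, 6 core sequences and the 10 6-mers of smallest p were named by rule, and other genes and sequences were named after their values were seen. Of the 389 listed genes, 4 were matched by older names. The set, lists and motifs were chosen with earlier results of these data known. No sequence is printed from arm 2R.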

Additional observations from a re-analysis of the deposited data

How the results depend on the processing

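Under 19 alternatives, 2 of them (which non-coding genes and which starts count) chosen after seeing the data, the core stayed above both flanks in all 16 fits, with ratios of 1.60 to 3.62. Of 123 Fisher comparisons with other classes 1 passed, the core shortened to AGACG against intronic summits (-6.09 points). The count of higher 6-mers was 22 with flanks at 1000 bp and 24 with windows that reach 50 bp from the summit. The stronger 50% of the optimal set held 330 summits of the set, which follows from taking fewer peaks. The share upstream was 69.6% with a limit of 10 kb, 81.1% with 3 kb and 68.5% with a margin of 1000 bp. The upstream share of qualifying bases, 69.4% with the main limits, was not recomputed for these. Such bases came to 1804 kb upstream and 240 kb downstream at 500 to 1000 bp, and to 592 and 411 kb at 4500 to 5000 bp. The cause was not tested. RefSeq annotation gave the same number of summits as Ensembl, counting the ncRNA biotype alone 672, and counting starts of pseudogenes and transposable elements 640. With each replicate left out of the matching in turn, summits matched in both remaining replicates had core ratios of 3.05 to 3.28. The optimal set itself was not rebuilt without a replicate, so its dependence on a single replicate was not tested. No paired analysis was possible because the samples form a single group.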
